A study of Mus musculus with 96 samples.

Results

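The genes described here are 5 solute carriers linked to urate: Slc22a12, Slc17a1, Slc17a3, Slc16a9 and Slc2a9. They were chosen by gene symbol from the 54532 genes of the deposited table, where each of the 5 matched 1 row. The table gives transcript abundance in glomeruli and in 14 tubule segments dissected by hand from kidneys of male C57BL/6 mice aged 6 to 8 weeks, kept on normal chow with free access to water. No genotype other than the strain and no treatment is named, so the segments themselves are the groups. PTS1 was the start of the convoluted proximal tubule, PTS2 the straight proximal tubule within the medullary rays and PTS3 its end in the outer stripe. For the thin limbs, DTL1 was the descending limb of short-looped nephrons, DTL2 and DTL3 that of long-looped nephrons in the outer and inner medulla, and ATL the ascending thin limb. The thick ascending limb was taken from medulla (MTAL) and cortex (CTAL). The distal convoluted tubule (DCT), connecting tubule (CNT) and the cortical, outer medullary and inner medullary collecting ducts (CCD, OMCD and IMCD) followed. Values are given per mouse number within a segment, 53 in all and called mice here, with 3 in most groups, 4 in OMCD and ATL and 5 in CCD, CTAL and PTS2. The labels do not say whether a number marks the same animal in different segments. A segment is a piece of tubule that can hold several cell types, and in such bulk samples fewer cells of a type and less RNA per cell cannot be told apart.

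Urate is filtered at the glomerulus and then both reabsorbed and secreted, mostly by the proximal tubule. URAT1, the product of Slc22a12, takes urate up from the lumen in exchange for organic anions, and GLUT9, the product of Slc2a9, is a voltage-driven urate carrier that in the human proximal tubule lets urate leave on the blood side. NPT1 (Slc17a1) and NPT4 (Slc17a3) are related carriers of the apical membrane that export urate and other anions, and MCT9 (Slc16a9) is a monocarboxylate transporter family member whose human locus is associated with serum urate. Unlike humans, mice keep a working uricase in the liver, so their plasma urate is low.

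All abundances are TPM, a share of all transcripts corrected for transcript length, so levels of different genes can be set side by side. The 93 library columns summed to between 999998.6 and 1000190.3 TPM, and TPM do not keep the number of reads, so the depth behind each value is unknown. Markers of some segments were high where the labels place them. Slc34a1 was at 9502 ± 307 TPM in PTS1 and 5659 ± 668 in PTS2 (SD over mice). Umod was at 36934 ± 1691 in CTAL, Slc12a3 at 5782 ± 220 in DCT and Podxl, a podocyte marker, at 2391 ± 486 in glomeruli. Aqp2, a principal cell marker, was at 6186 ± 1235 in CNT but does not mark CNT alone. The 3 principal cell markers summed to 7561 to 10959 TPM per mouse in CNT and 16784 to 22155 in CCD. DCT also held 3 thick limb markers, summing to 1381 to 2252 TPM, and 3 intercalated cell markers, at 527 to 579. In CNT the intercalated cell markers summed to 3552 to 4168 TPM. In PTS3 Slc34a1 was at only 44.2 ± 9.09 TPM and Gatm at 0.005 ± 0.00866, while Kap, an androgen-dependent proximal transcript, reached 75375 TPM there. Olfactory and vomeronasal receptor genes, which kidney cells are not expected to use, were listed at 1 TPM or more in large numbers in some groups. Of 1979 such symbols the median mouse had 916 in DTL1, 678 in glomeruli, 520 in DTL3, 329 in DTL2 and 317 in ATL, against 27 in PTS1, 112 in OMCD, 16 in IMCD and 4 or fewer in the remaining 7 groups.

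**Figure D1:**
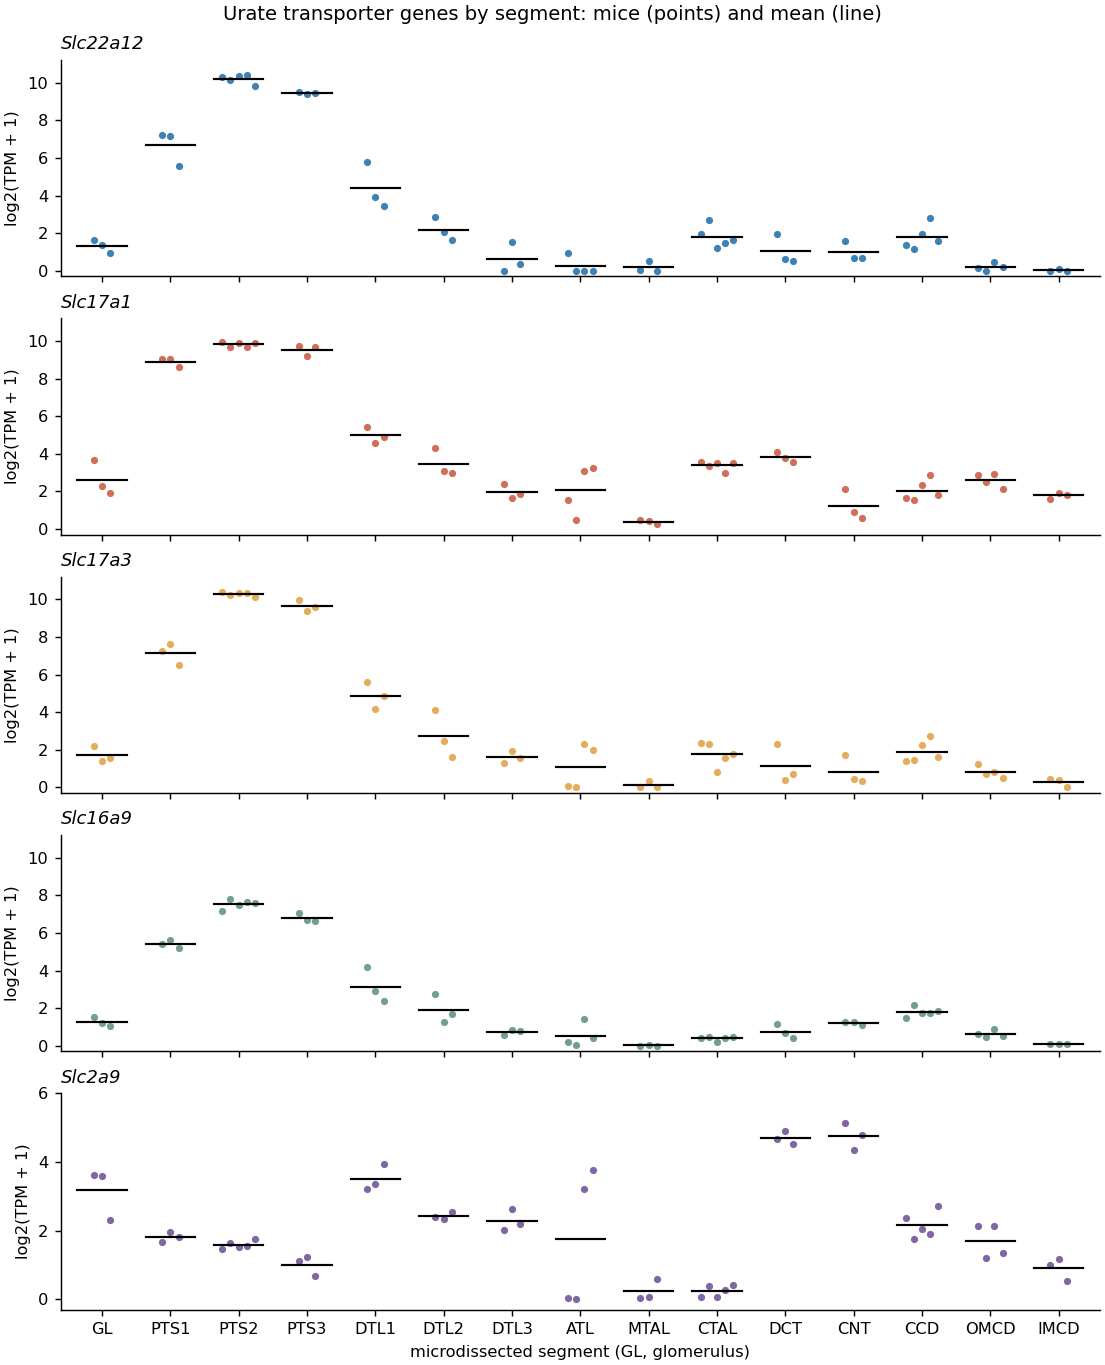
Abundance of the 5 genes on the log2(TPM + 1) scale in the glomerulus and 14 tubule segments, with 1 point per mouse and a line at the group mean. Slc22a12, Slc17a1, Slc17a3 and Slc16a9 are highest in PTS1, PTS2 and PTS3, whereas Slc2a9 is highest in DCT and CNT.

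The apical urate exchanger gene Slc22a12 (ENSMUSG00000061742) was among the abundant transcripts of the straight proximal tubule. It measured 1244.64, 1111.89, 1316.88, 1357.73 and 892.11 TPM in the 5 PTS2 mice, 731.74, 672.605 and 686.095 TPM in PTS3, and 149.57, 145.06 and 46.22 TPM in PTS1. Every PTS2 mouse lay above every PTS3 mouse, and every PTS3 mouse above every PTS1 mouse. DTL1 came next at 54.23, 14.16 and 9.91 TPM, its highest mouse above the lowest of PTS1, and no other group mean passed 3.79 TPM (DTL2). From DTL2 to the lowest group, IMCD at 0.0256 ± 0.0443 TPM (SD, n = 3), the mice of every 2 neighbouring groups overlapped.

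The exporter gene Slc17a3 (ENSMUSG00000036083) followed the same order from PTS2 through PTS3, PTS1 and DTL1 to DTL2, at similar levels. Its mice measured 1357.21, 1204.26, 1293.63, 1281.32 and 1107.38 TPM in PTS2, 1008.0, 664.825 and 777.905 in PTS3, and 153.45, 195.075 and 88.59 in PTS1. These 3 segments did not overlap, nor did PTS1 with DTL1 (30.6 ± 15.2 TPM, SD, n = 3) or DTL1 with DTL2 (7.71 ± 7.66). Below DTL2 the means ran from 2.98 TPM in CCD to 0.0883 in MTAL, and OMCD and IMCD were the only neighbours there whose mice did not overlap.

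Its relative Slc17a1 (ENSMUSG00000021335) was flatter along the proximal tubule. It measured 979.73, 819.75, 959.24, 808.37 and 959.9 TPM in PTS2, 834.905, 598.135 and 829.54 in PTS3, and 531.705, 521.73 and 396.25 in PTS1. PTS2 and PTS3 overlapped, and PTS1 lay below both. Outside the proximal tubule Slc17a1 was at 31.5 ± 10.2 TPM in DTL1, above and apart from DCT at 13.2 ± 2.59 (SD, n = 3). The mice of neighbouring groups then overlapped down to CNT at 1.62 TPM, and MTAL lay apart at 0.31 TPM.

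Slc16a9 (ENSMUSG00000037762), the monocarboxylate transporter family member, had the lowest peak of the 4. It measured 142.29, 225.6, 175.135, 201.93 and 194.64 TPM in PTS2, 131.42, 101.12 and 96.68 in PTS3, and 41.49, 48.105 and 36.14 in PTS1. The 3 segments did not overlap, and DTL1 lay below them at 17.08, 6.45 and 4.13 TPM, overlapping with DTL2. The remaining means fell from 3.1 TPM in DTL2 through 2.55 in CCD to 0.015 in MTAL. The only neighbours there without overlap were CTAL (0.32 TPM) and IMCD (0.07 TPM), and IMCD and MTAL.

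Parts of 2 of these genes share sequence with neighbours on the other strand. In the GENCODE M21 transcripts, 29.9% of the 31-base words of Slc22a12 also occur in other genes, 652 of 2288 in Nrxn2, whose exons overlap it. For Slc16a9 the share was 20.9%, from the antisense gene Gm7097 and the pseudogene Gm9877. The labels do not say whether counting used strand, and without strand, reads of overlapping genes cannot be told apart. Nrxn2 was highest in PTS1 at 19.2 ± 2.95 TPM, then 17.9 ± 10.7 in ATL, where Slc22a12 was at 0.235 ± 0.47, and was lower in PTS2 (7.18 ± 1.01) and PTS3 (3.42 ± 0.316). Gm7097 was at most 9.32 ± 1.25 TPM, in PTS3, and Gm9877 reached at most 1.07 ± 0.928 TPM, in glomeruli. No 31-base word of Slc17a1 or Slc17a3 was found in another gene (0 of 2398 and 0 of 6830), and Slc2a9 shared 1 of 5185.

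Among segments the 4 genes shared a call in the proximal tubule. Differences were tested with limma on log2(TPM + 1) over 33793 genes, and a gene was called where the Benjamini-Hochberg adjusted p was under 0.05 and the log2 difference at least 1. PTS1, PTS2 and PTS3 together were higher than the mean of the other 11 tubule segments by 7.59 ± 0.19 log2 units (SE) for Slc22a12, 7.51 ± 0.21 for Slc17a3, 6.94 ± 0.18 for Slc17a1 and 5.57 ± 0.13 for Slc16a9. Their adjusted p-values in limma were 1.85e-33, 3.91e-32, 8.1e-33 and 5.53e-35. That made 4 of the 5 genes called higher, where 4.02% of all genes tested were called higher and 23.8% were called in either direction. The background split depended on scaling: 16.9% of all calls were higher, against 44.5% of 5499 calls after median ratio rescaling and 51.8% of 4566 after quantile normalization. The median difference over all genes was -0.41, and ran from -0.91 (pseudocount 0.1) to -0.09 (quantile normalization) over the alternatives. The call held for these 4 genes under every alternative run.

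Within the proximal tubule 3 of the 5 genes were called lower in PTS1 than in PTS2 and none was called higher, against a background of 5.1% of genes called lower and 9.57% called in either direction. Slc22a12 was lower by 3.54 log2 units (SE 0.40, limma adjusted p = 1.05e-09), Slc17a3 by 3.16 (SE 0.43, adjusted p = 8.89e-08) and Slc16a9 by 2.13 (SE 0.27, adjusted p = 1.46e-08). As ratios of mean TPM, PTS2 exceeded PTS1 10.4-fold for Slc22a12, 8.57-fold for Slc17a3 and 4.48-fold for Slc16a9. Slc17a1 differed by -0.90 ± 0.38 (SE) and missed the threshold (limma adjusted p = 0.103), with a ratio of mean TPM of 1.87. Between PTS1 and PTS3 the same 3 genes were called lower in PTS1, by 2.79, 2.52 and 1.36 log2 units. Over all genes the shares were 3.97% called lower and 10.1% called in either direction. Between PTS2 and PTS3 none of the 5 was called (0 of 5, background 4.7%), and the estimates lay between 0.27 ± 0.38 (Slc17a1) and 0.77 ± 0.27 (Slc16a9). For Slc16a9 the limma adjusted p was 0.0483 but the difference was under 1, and at an unadjusted p under 0.05 it was the only gene of the 5. Kap made up 36100 TPM in PTS2, 75375 in PTS3 and 254 in PTS1, and its part in the TPM of other genes was not tested.

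PTS2 was the highest group for all 4 proximal genes, but none stood clear of every other group by the intersection-union test, which takes the weakest of the 14 one-sided limma contrasts. The margins over PTS3 were 0.75, 0.64, 0.27 and 0.77 log2 units for Slc22a12, Slc17a3, Slc17a1 and Slc16a9, and the limma adjusted p was 0.453 for Slc16a9 and 1 for the other 3. The unadjusted p was 0.0334 for Slc22a12 and 0.00309 for Slc16a9. Of all genes, 0.257% (87 genes) were called highest in PTS2.

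**Figure D2:**
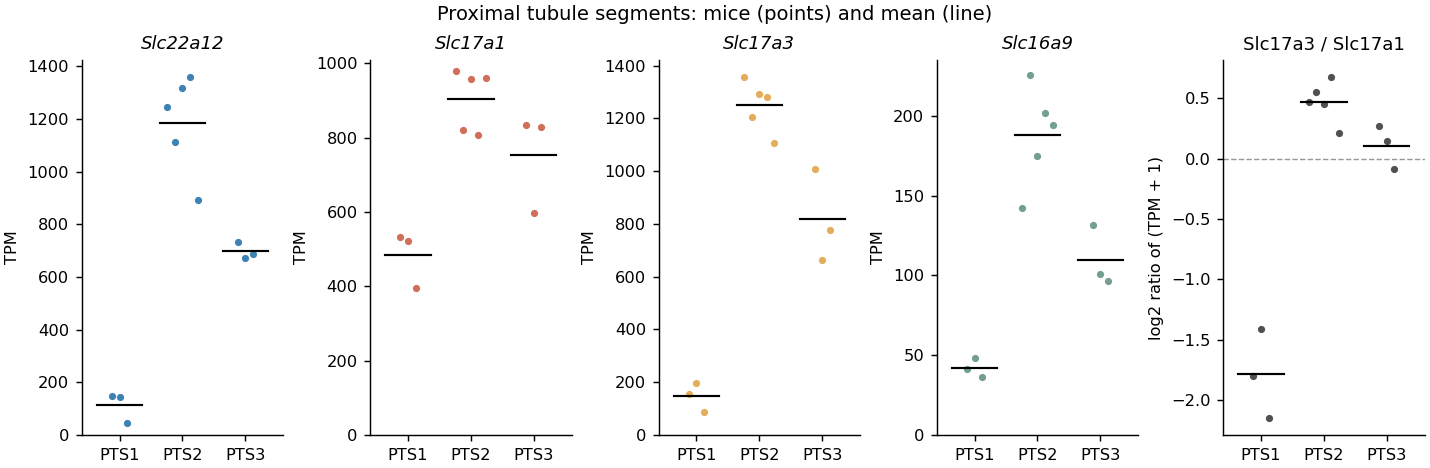
TPM of the 4 proximal genes in PTS1, PTS2 and PTS3 and, at the right, the log2 ratio of Slc17a3 to Slc17a1, with 1 point per mouse and a line at the mean. Slc22a12, Slc17a3 and Slc16a9 are lower in all PTS1 mice than in any PTS2 or PTS3 mouse, as is Slc17a1 by a smaller margin, and the ratio lies below 0 in all 3 PTS1 mice.

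The order of the 2 related exporters was not the same in PTS1 and PTS2. The log2 ratio of Slc17a3 to Slc17a1, on TPM + 1, was -1.79 ± 0.37 in PTS1 (SD, n = 3), 0.47 ± 0.17 in PTS2 (n = 5) and 0.11 ± 0.18 in PTS3 (n = 3). Slc17a1 was the more abundant in 3 of 3 PTS1 mice and Slc17a3 in 5 of 5 PTS2 mice. The difference between PTS1 and PTS2 was -2.26 log2 units, with a two-sided exact permutation p of 0.0357, the smallest these group sizes allow, and 0.1 after adjustment over the 3 pairs. PTS2 and PTS3 differed by 0.36 (exact p = 0.0714, adjusted 0.1). PTS1 and PTS3 differed by -1.89, where 3 mice against 3 cannot give an exact p below 0.1, the value found. None of the 3 comparisons passed 0.05 after adjustment.

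In CTAL and DCT, Slc17a1 was the more abundant of the 2 exporters. Slc17a1 was at 10.73, 9.08, 10.485, 7.035 and 10.29 TPM in CTAL and at 16.04, 12.685 and 10.945 TPM in DCT. Slc17a3 was at 4.2, 4.02, 0.765, 1.98 and 2.37 TPM in CTAL and at 4.0, 0.31 and 0.615 TPM in DCT, so that the 2 genes did not overlap in either segment. The log2 ratio was -1.62 ± 0.65 in CTAL (SD, n = 5), -2.72 ± 0.78 in DCT (n = 3) and -1.76 ± 0.26 in OMCD (n = 4), against -0.18 ± 0.06 in CCD (n = 5). In DCT the 8 proximal markers summed to between 27.3 and 479 TPM per mouse, the highest in mouse 1, and from 19.3 to 836 TPM in single pieces of tubule. The piece with the lowest sum held Slc17a1 at 12.27 TPM and Slc17a3 at 0.1 TPM, and the piece with the highest sum held them at 20.04 and 6.13 TPM. In MTAL Slc17a1 measured 0.39, 0.335 and 0.205 TPM, below every CTAL mouse. The proximal markers moved the same way, with sums of 110 to 451 TPM per mouse in CTAL and 2.84 to 22.6 TPM in MTAL, and their part in this difference was not tested.

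Between DCT and CNT Slc17a1 was the only gene of the 5 to be called, where 5.22% of all genes were. It fell from 13.2 ± 2.59 TPM in DCT to 1.62 ± 1.6 in CNT (SD, n = 3 each), a log2 difference of 2.61 ± 0.43 (SE, limma adjusted p = 9.34e-06). The estimate lay between 1.47 and 3.44 over the processing alternatives, which moved with the pseudocount, and the call held in all of them. Slc22a12, Slc17a3, Slc16a9 and Slc2a9 differed between these segments by 0.06, 0.28, -0.50 and -0.06 log2 units.

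DTL1 was the only group outside the proximal tubule in which all 4 proximal genes had a mean above 9 TPM. Relative to PTS2 they stood at 2.2% (Slc22a12), 2.45% (Slc17a3), 3.48% (Slc17a1) and 4.91% (Slc16a9) of the mean TPM. The 8 proximal markers in DTL1 ranged from 0.0359% (Slc34a1) to 15.3% (Cubn) of PTS2, with a median of 6.13%, and summed to between 1456 and 5124 TPM per mouse. The mouse with the highest sum, mouse 1, was also the highest of the 3 for all 4 genes. Without it the shares of PTS2 were 1.02% (Slc22a12), 1.8% (Slc17a3), 2.87% (Slc17a1) and 2.82% (Slc16a9), and Slc16a9 averaged 5.29 TPM in DTL1. In DTL2 a single piece from mouse 1 stood apart, with a marker sum of 1183 TPM where the other 6 pieces had 16.6 to 271, and it held Slc17a1 at 33.45 TPM and Slc17a3 at 31.96 TPM, where the other piece of the same mouse had 3.66 and 0.92. The part of proximal transcripts in these low values was not tested.

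To show the sequence upstream of proximal genes and of the gene with another pattern, the 250 bases before the RefSeq start of Slc22a12, Slc17a1 (the downstream of its 2 starts) and Slc2a9 are given for build GRCm38.p6, each 5′ to 3′ on the gene's strand. Capitals mark AGGTCA or its reverse complement TGACCT, the half-site shared by many nuclear receptors, a family to which the proximal factor HNF4A belongs. The motif was chosen with the sequences in view, and both strands were searched.
Slc22a12 (chr19:6543071-6543320, minus strand): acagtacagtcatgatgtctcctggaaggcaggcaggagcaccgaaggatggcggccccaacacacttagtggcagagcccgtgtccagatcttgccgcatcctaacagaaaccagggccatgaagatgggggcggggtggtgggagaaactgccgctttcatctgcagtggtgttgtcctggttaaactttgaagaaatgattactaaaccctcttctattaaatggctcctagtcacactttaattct
Slc17a1 (chr13:23870023-23870272, plus strand): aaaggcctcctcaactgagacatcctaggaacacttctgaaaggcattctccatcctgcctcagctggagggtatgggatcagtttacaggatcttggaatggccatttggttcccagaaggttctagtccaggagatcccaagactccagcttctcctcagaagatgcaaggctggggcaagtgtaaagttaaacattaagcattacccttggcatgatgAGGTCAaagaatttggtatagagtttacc
Slc2a9 (chr5:38483386-38483635, minus strand): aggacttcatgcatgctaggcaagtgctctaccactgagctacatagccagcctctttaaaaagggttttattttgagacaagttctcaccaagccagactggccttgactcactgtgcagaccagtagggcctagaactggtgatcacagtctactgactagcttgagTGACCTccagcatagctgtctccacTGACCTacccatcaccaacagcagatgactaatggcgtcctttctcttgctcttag
Slc17a1 held 1 match starting at -29 from this start and 1 at -227 from its other start, and Slc2a9 held 2, at -81 and -56. Slc22a12, Slc17a3 and Slc16a9 held 0. As the motif was chosen with the sequences in view, no conclusion is drawn from which genes held it. The letters occur in 14.0% of 32851 promoters of this length. A match describes the letters and does not show that a factor binds there.

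Slc2a9 (ENSMUSG00000005107), the gene of the voltage-driven urate carrier, did not follow the other 4. It was highest in the connecting and distal convoluted tubules, at 34.09, 19.555 and 26.37 TPM in CNT and 24.58, 29.005 and 22.255 TPM in DCT. These 2 groups overlapped, and all of their mice lay above every mouse of every other group. In the proximal tubule Slc2a9 was at 2.54 ± 0.36 TPM in PTS1 (SD, n = 3), 2.03 ± 0.24 in PTS2 (n = 5) and 1.03 ± 0.38 in PTS3 (n = 3). The mice of PTS2 lay above those of PTS3, but the pieces of a single PTS3 mouse read 0.01 and 2.32 TPM. Mean TPM in CNT was 13.2-fold and in DCT 12.5-fold that of PTS2.

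Slc2a9 was lower on both sides of DCT and CNT. In CTAL, the segment just upstream of DCT, Slc2a9 measured 0.04, 0.32, 0.055, 0.22 and 0.325 TPM, and in MTAL 0.03, 0.06 and 0.525. In CCD, just after CNT, it measured 4.15, 2.4, 3.155, 2.77 and 5.525 TPM. OMCD followed at 2.41 ± 1.15 TPM (SD, n = 4) and IMCD at 0.898 ± 0.401 (n = 3), where single pieces ranged from 0 to 2.96 TPM. CCD overlapped with DTL3 above it and with PTS1 below it in the order of means.

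**Figure D3:**
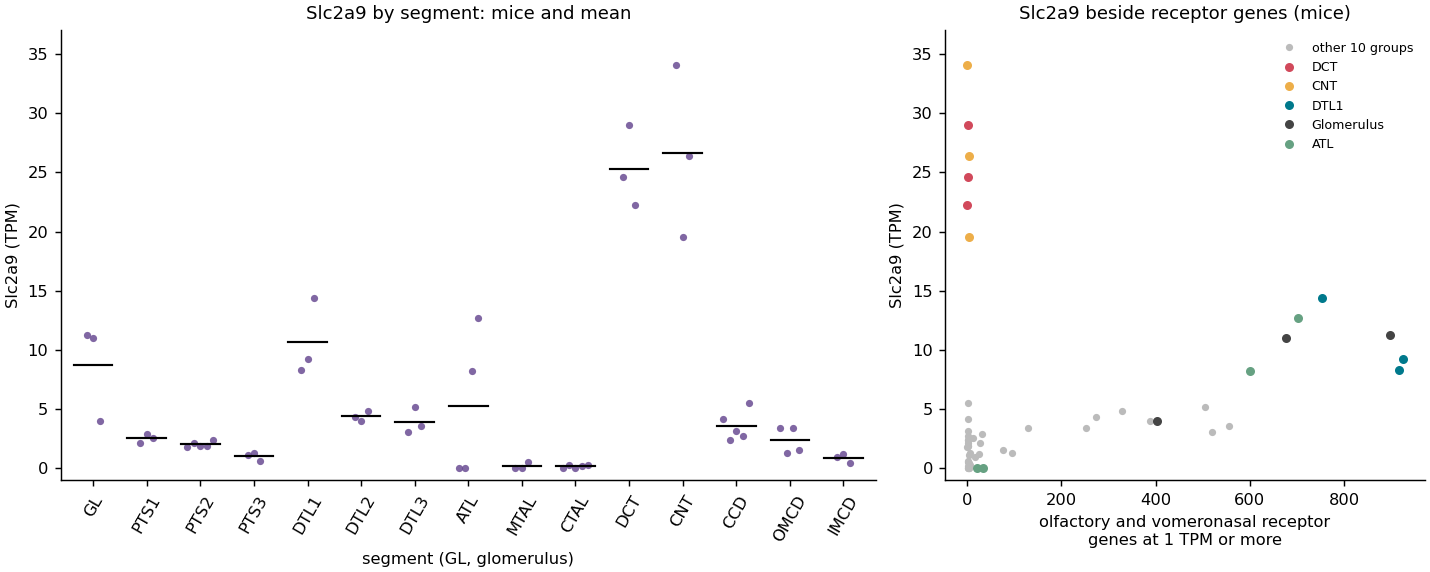
Slc2a9 in TPM by segment (left; points are mice and lines group means) and against the number of olfactory and vomeronasal receptor genes at 1 TPM or more in the same mouse (right). DCT and CNT mice lie between 19.6 and 34.1 TPM with at most 3 receptor genes, while the DTL1, glomerulus and ATL mice above 8 TPM have 601 or more.

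Slc2a9 was higher in DCT and CNT than in the proximal tubule by 3.29 ± 0.32 log2 units (SE, limma adjusted p = 3.93e-12), or 9.77-fold on the TPM + 1 scale, while the other 4 genes differed by -5.61 to -8.07 log2 units. All 5 genes were thus called in this comparison, in which 18.8% of all genes were. It was the only gene of the 5 called between CTAL and DCT, lower in CTAL by 4.45 ± 0.46 log2 units (adjusted p = 1.81e-10, background 4.35%), and the only gene called between CNT and CCD, higher in CNT by 2.60 ± 0.46 (adjusted p = 0.000276, background 1.12%). With a pseudocount of 0.1 the CNT to CCD call was lost (2.88 log2 units, limma adjusted p = 0.0926; 8.33e-10 to 0.0926 over the alternatives), and leaving out CNT mouse 3 lowered the number of genes called there from 378 to 219. With a pseudocount of 5 the CTAL to DCT difference shrank to -2.53 and the difference from the proximal tubule to 2.16 log2 units, both still called. CNT and DCT differed by only 0.06 ± 0.51 log2 units, so that Slc2a9 was not called highest in 1 group (adjusted p = 1), as 0.0148% of genes (5 genes) were for CNT.

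Compared with the mean of the other 11 tubule segments Slc2a9 was lower in the proximal tubule by 0.78 ± 0.22 log2 units (SE, limma adjusted p = 0.0019), under the difference of 1 needed for a call and beside a median of -0.41 over all genes. That median was -0.91 with a pseudocount of 0.1, -0.75 with a 5 TPM filter and -0.09 after quantile normalization. The sign of the Slc2a9 difference turned after quantile normalization, to 0.28 (limma adjusted p = 0.184).

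Outside DCT and CNT the Slc2a9 values above 8 TPM came from mice with 601 or more receptor genes, but values up to 5.53 TPM occurred with few and with many. DTL1 mice had 8.33, 9.25 and 14.4 TPM with 916, 925 and 753 receptor genes at 1 TPM or more, and glomeruli 11.3, 11 and 4 TPM with 898, 678 and 403. In ATL, mice 2 and 3 had 0.02 and 0 TPM with 33 and 20 receptor genes, and mice 4 and 6 had 8.2 and 12.72 TPM with 601 and 703. DTL3 mice had only 3.06, 5.17 and 3.6 TPM with 520, 504 and 556 receptor genes and DTL2 mice 4.31, 4.03 and 4.83 TPM with 274, 389 and 329, which overlaps with CCD, at 2.4 to 5.53 TPM with 1 or 2 receptor genes. DCT and CNT mice had 0 to 3 receptor genes at Slc2a9 levels of 19.6 TPM or more. What the receptor genes stand for, and their part in the Slc2a9 of DTL1, ATL and glomeruli, was not tested. The estimate for DCT and CNT against the proximal tubule uses none of the means of the glomerulus, DTL1, DTL2, DTL3 and ATL. Its standard error and p-value come from the fit over all 15 groups, with these included.

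**Figure D4:**
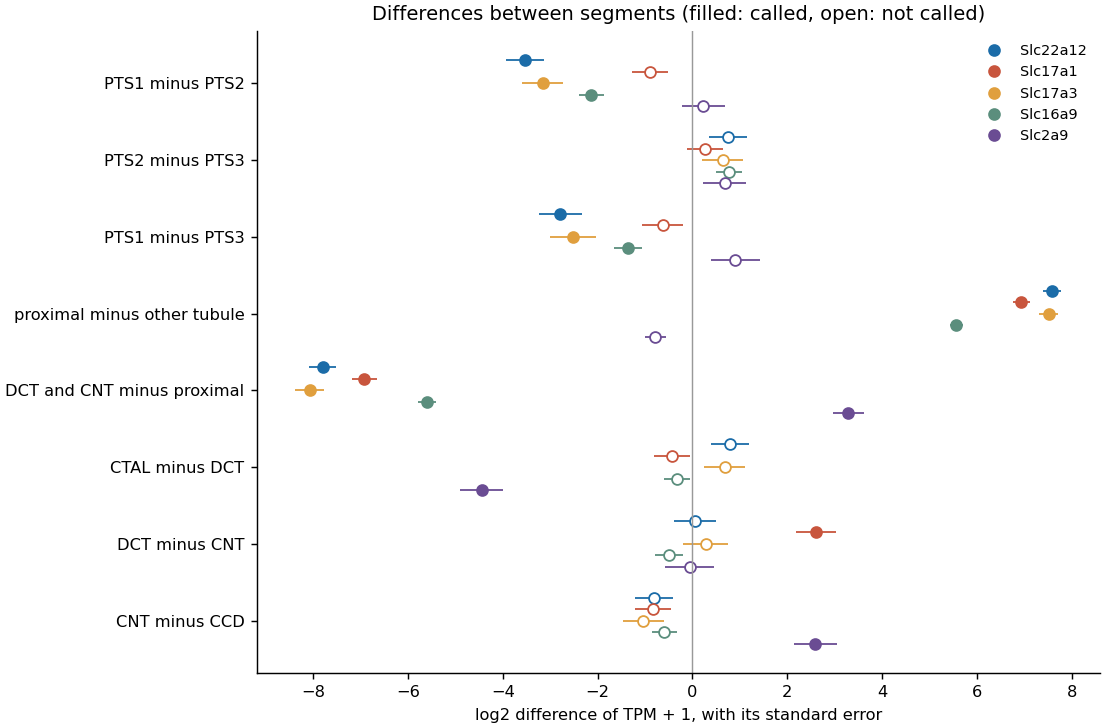
Log2 differences of TPM + 1 with their standard errors for the 5 genes in 8 comparisons of segments, filled where called and open where not. Slc2a9 lies opposite to the other 4 genes when DCT and CNT are set against the proximal tubule, and it is the only gene called for CTAL against DCT and for CNT against CCD.

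The profiles of the 4 proximal genes over the 15 group means of log2(TPM + 1) were close to each other, with Pearson's r from 0.950 (Slc17a1 and Slc16a9) to 0.995 (Slc22a12 and Slc17a3), and Slc2a9 had r from -0.149 to -0.0823 with them. These values describe 15 shared groups. Among 12039 genes with a mean of at least 10 TPM in some group, those most like Slc22a12 were Cyp4a31, a cytochrome P450 (r = 0.998), Serpinf2, the gene of antiplasmin (0.997), and Slc22a2, an organic cation transporter (0.996). For Slc17a3 Serpinf2 came first (0.997), before Slc22a12 itself (0.995) and the carboxylesterase Ces1f (0.994). For Slc16a9 they were Cyp4a31 (0.989), Slc17a3 (0.989) and Serpinf2 (0.988), and for Slc17a1 Mfsd4b5 (0.973), the peroxisomal reductase gene Pecr (0.973) and Slc22a28 (0.972). The closest genes to Slc2a9 were less alike: Cpne7 (0.843), Llcfc1 (0.835) and Hkdc1 (0.827), each highest in DCT at 10.7, 10.7 and 24.0 TPM.

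A further 26 genes of urate handling, listed from general knowledge of the pathway, gave the setting of these 5. Of the 26, 25 passed the filter on low values and Urad, an enzyme of urate breakdown, did not. In the proximal tubule against the other tubule segments 13 of the 25 were called higher and 3 lower, where 4.02% of all genes were called higher and 19.8% lower. PTS1 against PTS2 gave 4 higher and 7 lower (4.46% and 5.1% of all genes), and PTS2 against PTS3 gave 4 higher and 0 lower (3.94% and 0.755%). In PTS1 against PTS3 there were 7 higher and 4 lower (6.14% and 3.97%), and in DCT and CNT against the proximal tubule 4 higher and 14 lower (14.1% and 4.7%). For CTAL against DCT there was 1 call in each direction (2.34% and 2.01%), for DCT against CNT 0 higher and 1 lower (1.52% and 3.7%), and for CNT against CCD there was none (0 of 25, where 0.438% of all genes were called higher and 0.681% lower). The median difference of the 25 was 1.92 log2 units for the proximal tubule against the rest and -0.26 for PTS1 against PTS2, where the medians over all genes were -0.41 and 0.15.

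Of 8 other carriers of urate, 5 were called higher and 1 lower in the proximal tubule than in the other tubule segments, beside the 4.02% and 19.8% of all genes. Between PTS1 and PTS2 the 8 were split, with 3 called higher and 3 lower in PTS1 and a median difference of 0.02 log2 units, where 4.46% of all genes were called higher and 5.1% lower. The 3 called lower in PTS1 were organic anion transporters. Slc22a7 measured 2468 ± 224 TPM in PTS2 (SD, n = 5), 1460 ± 207 in PTS3 and 2.1 ± 3.54 in PTS1, a log2 difference of -10.59 ± 0.40 (SE) between PTS1 and PTS2 (limma adjusted p = 1.96e-25). Slc22a13 was at 468 ± 69.2, 424 ± 38.9 and 0.705 ± 0.562 TPM in the same order, and differed by -8.16 ± 0.34 between PTS1 and PTS2. Slc22a6, the basolateral OAT1, was at 981 ± 206 TPM in PTS2 and at 30.9 ± 19.8 in PTS1 and 1.45 ± 0.401 in PTS3. Its partner Slc22a8 (OAT3) was called in the other direction, at 258 ± 53 TPM in PTS1 and 56.4 ± 20.3 in PTS2 (2.26 ± 0.32 log2 units, adjusted p = 2.02e-07). The exporter gene Abcg2 was at 652 ± 81.7 TPM in PTS1, 534 ± 27.4 in PTS2 and 265 ± 33.7 in PTS3, and was not called between PTS1 and PTS2 (0.29 ± 0.51, adjusted p = 0.801).

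Abcc4, another efflux pump that carries urate, was lowest in PTS2 and PTS3. It was at 141 ± 55 TPM in IMCD (SD, n = 3) and 106 ± 18.1 in ATL (n = 4), and at 0.362 ± 0.105 in PTS2 (n = 5) and 0.243 ± 0.287 in PTS3 (n = 3). PTS1 was unlike these, at 13.4 ± 3.05 TPM (n = 3), near DCT at 12.3 ± 1.31, and was called higher than PTS2 by 3.38 ± 0.22 log2 units (SE, limma adjusted p = 9.55e-17). The 3 proximal segments together were called lower than the other tubule segments by 3.33 log2 units (SE 0.11, limma adjusted p = 1.69e-29). Slc17a4, a relative of Slc17a1, was called higher in PTS1 than in PTS2 by 2.98 ± 0.31, but at a low 11.3 ± 6.2 TPM, and Slc17a2 had no group mean above 3.23 TPM.

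Carriers that bring into the cell the anions exchanged for urate changed places along the proximal tubule. Slc5a12, a sodium lactate carrier, was at 338 ± 55.6 TPM in PTS1 (SD, n = 3), 0.024 ± 0.0227 in PTS2 (n = 5), and listed at 0 in PTS3. Slc5a8, the related carrier, was at 0.532 ± 0.771 TPM in PTS1, 208 ± 11 in PTS2 and 118 ± 15.8 in PTS3. The dicarboxylate carrier Slc13a3 was at 224 ± 40 TPM in PTS2, 6.57 ± 2.68 in PTS1 and listed at 0 in PTS3. All 3 were called between PTS1 and PTS2, Slc5a12 higher in PTS1 and the other 2 lower, where 4.46% of all genes were called higher and 5.1% lower.

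**Figure D5:**
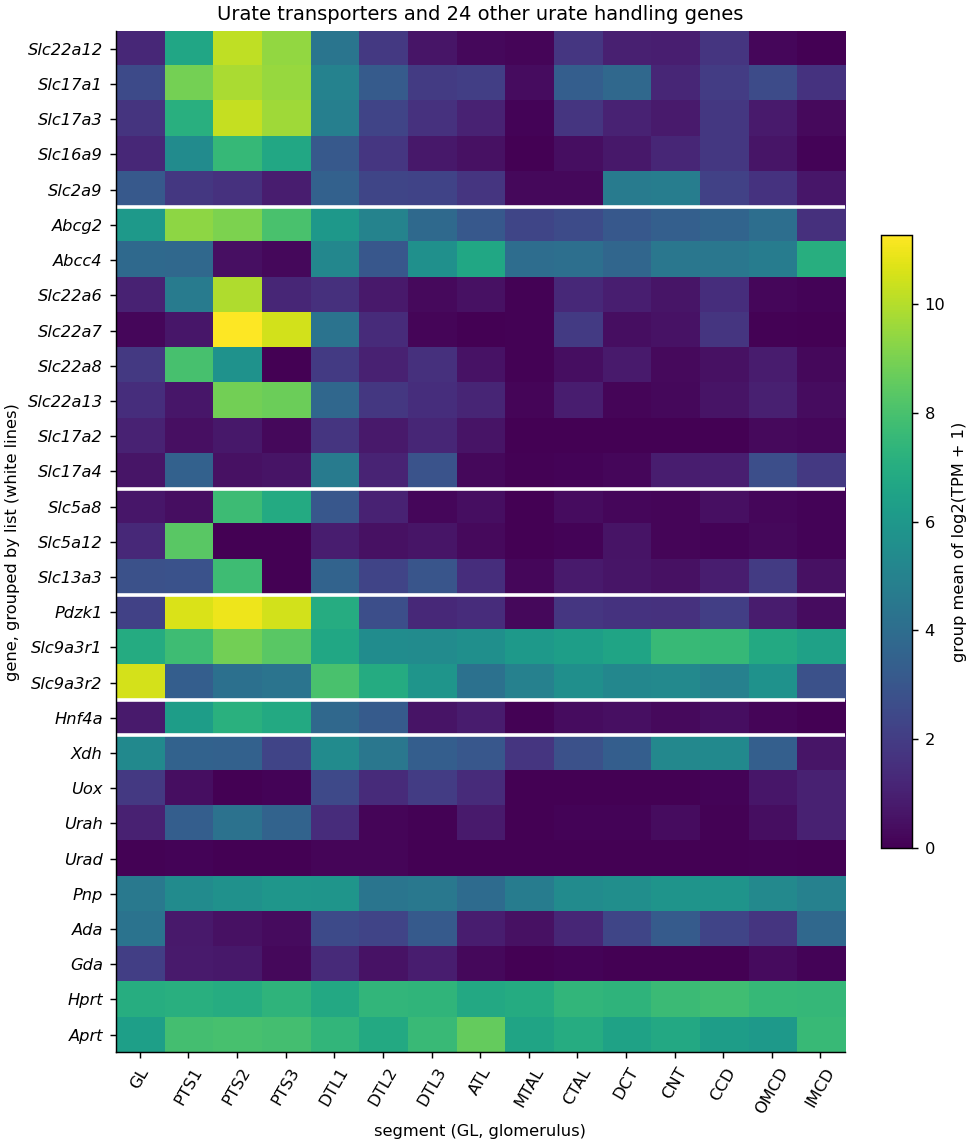
Group means of log2(TPM + 1) for the 5 urate transporter genes and 24 of the other urate handling genes (rows, with white lines between the lists) in the glomerulus and 14 tubule segments (columns). Slc22a7, Slc22a13 and Slc5a8, like Slc22a12, are higher in PTS2 than in PTS1, where their means are 2.1 TPM or less and that of Slc22a12 is 114 TPM, while Slc5a12 and Slc22a8 are highest in PTS1 and Abcc4 in IMCD.

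The scaffold gene Pdzk1, whose protein binds the tail of URAT1, was abundant along the whole proximal tubule, at 1557 ± 89.3, 1994 ± 123 and 1456 ± 159 TPM in PTS1, PTS2 and PTS3, and was higher there than in the other tubule segments by 8.78 ± 0.24 log2 units (SE, limma adjusted p = 2.35e-32). It was not called between PTS1 and PTS2 (-0.36 ± 0.50, adjusted p = 0.74). The other 2 listed scaffolds differed from it. Slc9a3r1, which encodes NHERF1, was at 218 ± 14.6 TPM in PTS1, 463 ± 37.5 in PTS2 and 335 ± 35.4 in PTS3, and was called lower in PTS1 than in PTS2 (-1.08 ± 0.16 log2 units, limma adjusted p = 3.54e-07) and higher in the proximal tubule than in the other tubule segments (1.92 ± 0.08, adjusted p = 3.25e-26). Slc9a3r2, which encodes NHERF2, was at 9.34 ± 1.22 TPM in PTS1, 17.3 ± 3.0 in PTS2 and 20.1 ± 6.46 in PTS3, and was called lower in the proximal tubule (-1.48 ± 0.14, adjusted p = 9.24e-13). The transcription factor gene Hnf4a was at 78.0 ± 14.3, 142 ± 15 and 113 ± 14.4 TPM in the same segments and was called higher in the proximal tubule (5.82 ± 0.13 log2 units, limma adjusted p = 4.75e-35). Between PTS1 and PTS2 it differed by -0.87 ± 0.28 and was not called, the difference being under 1.

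Of the 8 purine and urate enzymes tested, 1 (Urah) was called higher in the proximal tubule and 1 (Ada) lower, where 4.02% of all genes were called higher and 19.8% lower. Xdh, whose product makes urate, was at 11.4 ± 3.8, 10.4 ± 1.37 and 4.71 ± 2.3 TPM in PTS1, PTS2 and PTS3, and at 36.8 ± 3.59 in CNT and 39.9 ± 9.06 in CCD. Its mean in DTL1 was 44.0 TPM. Xdh was the listed gene called lower in DCT than in CNT, by 1.88 ± 0.43 log2 units (SE, limma adjusted p = 0.00136). Uox, the uricase gene, was at no more than 0.322 TPM in the proximal segments and highest in DTL1 at 5.82 ± 5.27, a group with many receptor genes.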

How the data were processed

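Expression was taken from the TPM values deposited by the authors for microdissected segments. Per the labels, Direct-zol kits were used for RNA, the SMARTer V4 kit for cDNA and Nextera XT for libraries. The submitters' processing notes name STAR 2.5.4a and RSEM 1.3.0, without role or order, and the genome build and annotation behind the TPM are not given in the sources used here. The 14 columns of authors' means were not used, and 3 single-cell samples were not analysed here. A PTS2 column whose piece letter matched no title was kept as a PTS2 mouse without a number.

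Pieces of a mouse (up to 3) were averaged on the log2(TPM + 1) scale for tests and as TPM for levels. Genes with at least 1 TPM in at least 3 mice were kept (33793, or 62%, with all 5 genes described). limma 3.58.1 in R 4.3.3 (lmFit, eBayes with trend) was fitted over all 15 groups, with two-sided tests in 8 comparisons and Benjamini-Hochberg adjustment over genes. Log2 differences understate the change of low genes. Levels and exact tests used Python 3.11.15 with scipy 1.17.1, and the fit was tested on simulated data. The labels do not say whether a mouse number marks the same animal in different segments, and the numbers were not used to pair samples. Named genes were the 5, the 26 listed genes and, for each of the 5, the 3 most alike (gene models, ribosomal, mitochondrial and pseudogene symbols left out). The values of some listed genes are not reported here. The genes, lists and comparisons were chosen with earlier results of these data known. Alternatives were pseudocounts of 0.1 and 5, a 5 TPM filter or none, 2 other scalings, other averaging, pieces as samples, a replicate block, and leaving out each mouse or, chosen after seeing the data, the glomerulus, DTL1, DTL2, DTL3 and ATL.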

Additional observations from a re-analysis of the deposited data

Results flagged for a closer look

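Of 25 sets of 4 or 5 mice tested for a value far from the rest, 2 held such a value. Slc22a12 was at 0.94 TPM in ATL mouse 2 and listed at 0 in the other 3 mice, where any value above 0 would have met the test, so that it says nothing of how far the value lies from the rest. Slc16a9 was at 0.15 TPM in CTAL mouse 3, below the 0.34 to 0.4 TPM of the other 4. By chance alone about 1 in 20 sets meets the cutoff of this test.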

How the results depend on the processing

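Of the values for the 5 genes, 453 kept their direction and side of the threshold under the processing alternatives, 5 turned sign and 1 lost its call, and with each mouse left out in turn 2410 kept theirs and 8 turned sign. None of the values that turned sign had been called. Slc2a9 in the proximal tubule against the other tubule turned to 0.28 with quantile normalization. Slc2a9 in DCT against CNT became 0.29 with median ratio rescaling and 0.27 with quantile normalization, and so its CNT margin became -0.29 and -0.27, and with a mouse left out they ran from -0.25 to 0.13 and from -0.13 to 0.25. With a mouse left out, DCT against CNT ran from -0.37 to 0.35 for Slc22a12 and from -0.27 to 0.73 for Slc17a3. Slc2a9 in CNT against CCD lost its call at a pseudocount of 0.1 (2.88).

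Counts of genes called moved mainly with the pseudocount. At 0.1 they were 8926 for PTS1 against PTS2 (3233 in the report), 2640 for PTS2 against PTS3 (1588), 8631 for PTS1 against PTS3 (3417) and 16746 for proximal against other tubule (8041), with 1 gene highest in CNT (5) and 44 in PTS2 (87). At 5 they were 1811, 763, 1813 and 4325 in the same order, then 3761 for DCT and CNT against proximal (6340), 873 for CTAL against DCT (1470), 1055 for DCT against CNT (1765) and 166 for CNT against CCD (378). Quantile normalization gave 4566 for proximal against other tubule, 245 for CNT against CCD and 9 highest in CNT (5 in the report). With pieces as samples, and no other change, 8 were highest in CNT. Without the glomerulus, DTL1, DTL2, DTL3 and ATL, 15 were highest in CNT and 135 in PTS2. CNT against CCD ran from 219 (without CNT mouse 3) to 419 with a mouse left out.

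The pseudocount also moved the share of calls that were higher, from 46.6% to 77.3% at 0.1 and 36.3% at 5 for PTS1 against PTS2 and from 60.7% to 82.3% at 0.1 for PTS1 against PTS3. Scaling moved that share from 46.6% to 67.7% (median ratio) for PTS1 against PTS2, from 83.9% to 57.2% and 65.6% (quantile) for PTS2 against PTS3, from 16.9% to 44.5% and 51.8% for proximal against other tubule, from 75% to 52.2% and 54.2% for DCT and CNT against proximal, from 29.1% to 46.9% and 45.9% for DCT against CNT and from 39.2% to 51.1% and 58.4% for CNT against CCD. The median over all genes for proximal against other tubule moved from -0.41 to -0.23 (median ratio) and -0.09 (quantile). It moved the other way at a pseudocount of 0.1 (-0.91) and with the 5 TPM filter (-0.75). At a pseudocount of 5 it was -0.16, and with no filter -0.23. Without the glomerulus, DTL1, DTL2, DTL3 and ATL it was -0.10. With the mouse number as a replicate block no call for the 5 genes changed (Slc2a9 in DCT and CNT against proximal, 3.38); residuals of same-numbered mice had a median correlation of 0.000185 over 290 pairs, and the numbers were not taken as a pairing. TPM keep no depth, so differences among values under 1 TPM cannot be weighed against counting error.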
